A study of Mus musculus with 8 samples.

Results

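The genes described here are 10 genes whose expression marks regulatory T cells (Treg) in the mouse: Foxp3, Ikzf2, Ikzf4, Il2ra, Nrp1, Gpr83, Izumo1r, Swap70, Capg and Ecm1. They were taken by symbol from the platform annotation, which gave them 21 of the 25697 probes on the array. Of these probes, 19 were detected (detection p under 0.01) on 2 or more arrays, and all 10 genes were among the 7926 genes tested. A probe of Ikzf4 and a probe of Swap70 were detected on no array and were left out.

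RNA came from CD4 T cells of C57BL/6 bone marrow chimeras, in which marrow of 2 donors shares a host. The first donor, NIKtg/CD4Cre/foxp3RFP, held a Map3k14 transgene at the ROSA26 locus, Map3k14 being the gene of the kinase NIK. It also carried Cre under the CD4 promoter (B6.Cg-Tg(CD4-Cre)1Cwi/BfluJ), which is active in developing T cells of both the CD4 and the CD8 lineage. The second donor, B6.Thy1.1/Foxp3RFP, is called WT here. Cells of either donor carried the red fluorescent Foxp3 reporter B6.Foxp3tm1Flv/J, so every group held it, controls included. Recipients were B6.CD45.1 mice irradiated with 1200 rads, and cells were taken more than 8 weeks after reconstitution. The age of the animals and any pooling of animals are not given in the labels.

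There were 4 groups of 2 arrays each. WT Treg were sorted as RFP+Thy1.1+CD4+GFP- and NIKtg Treg as RFP+Thy1.1-CD4+GFP+. Conventional T cells (Tconv) were the reporter-negative counterparts, RFP-Thy1.1+CD4+GFP- for WT Tconv and RFP-Thy1.1-CD4+GFP+ for NIKtg Tconv. NIKtg and WT cells thus differed in the transgene, GFP, the Thy1 allele and Cre, which cannot be told apart, since no group carried Cre or GFP alone. No label states that the 2 arrays of a group stem from different animals. The p-values therefore speak of the spread between these arrays alone, and that spread may be technical.

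Treg restrain immune responses, and mice or people that lack them develop severe autoimmunity. Foxp3 is the transcription factor that fixes their identity. It works with partners such as Eos, the product of Ikzf4, and Treg depend on interleukin-2 taken up through the receptor whose alpha chain Il2ra encodes. NIK starts the noncanonical NF-kB pathway, in which the p100 precursor is processed to the p52 subunit.

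Promoter windows are shown for Foxp3, Il2ra and Swap70. The first pair fell and the third rose in NIKtg Tconv, while their differences in Treg did not pass the test. That does not single them out, since Gpr83, Izumo1r and Ikzf2 also fell in Tconv with no call in Treg. The windows of Gpr83 and Izumo1r are not at the outermost annotated start. They held no match to any motif searched and are not shown. Each run holds the 250 bases upstream of the outermost annotated start, 5′ to 3′ on the plus strand, from RefSeq on GRCm38.p6. The build is that of the promoter table, since none is given for the arrays. Capitals mark matches, on either strand, to a loose NF-kB-like motif (GGG, then any 5 bases, then CC, where matches may overlap) or to GTAAACA (a forkhead motif).
Foxp3 promoter, chrX:7579426-7579675: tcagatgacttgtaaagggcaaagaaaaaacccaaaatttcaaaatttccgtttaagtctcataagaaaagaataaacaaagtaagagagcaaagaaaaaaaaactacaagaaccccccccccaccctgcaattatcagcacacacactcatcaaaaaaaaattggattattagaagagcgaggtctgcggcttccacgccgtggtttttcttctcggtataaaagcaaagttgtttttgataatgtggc
Il2ra promoter, chr2:11642542-11642791: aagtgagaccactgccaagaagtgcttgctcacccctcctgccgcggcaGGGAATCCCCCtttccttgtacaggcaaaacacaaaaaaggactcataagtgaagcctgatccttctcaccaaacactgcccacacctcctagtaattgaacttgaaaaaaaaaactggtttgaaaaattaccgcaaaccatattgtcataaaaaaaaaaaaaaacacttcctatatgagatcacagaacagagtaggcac
Swap70 promoter, chr7:110221453-110221702: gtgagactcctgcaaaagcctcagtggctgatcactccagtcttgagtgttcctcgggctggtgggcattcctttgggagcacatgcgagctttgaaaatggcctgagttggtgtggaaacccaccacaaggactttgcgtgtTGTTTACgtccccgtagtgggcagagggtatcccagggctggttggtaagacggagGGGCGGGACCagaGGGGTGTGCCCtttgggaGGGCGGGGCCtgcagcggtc
The Foxp3 window held no match, the Il2ra window a pair of overlapping NF-kB-like matches, and the Swap70 window 4 such matches, a pair of them overlapping, and 1 forkhead match. RefSeq promoters were matched for 8 of the 10 genes, and Ikzf2 and Ikzf4 had no entry. The NF-kB-like motif was found for 4 of those 8 genes (Il2ra, Nrp1, Swap70 and Capg) and in 45.8% of all 32851 windows of the same length. GTAAACA was found for 1 of 8 (Swap70) and in 3.17% of windows. TTCNNNGAA, a STAT-like motif, was found for 1 of 8 (Foxp3, in the window of another start that is not printed) and in 7.02% of windows. A match is a run of letters and no evidence that a factor binds there.

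Between 9826 and 10794 probes were detected per array. Arrays of 1 group correlated across genes at r between 0.9889 and 0.9942, against 0.9231 to 0.9731 between groups. The single Map3k14 probe did not rise on NIKtg arrays: the difference from WT was 0.09 (SE 0.11, adjusted p = 0.579) in Treg, and it fell by 0.52 (SE 0.11, adjusted p = 0.0102) in Tconv. The fall was lost without WT Tconv 1 (adjusted p = 0.0603) or NIKtg Tconv 1 (0.0583) and with median centring (0.231), the highest of its alternatives. The position of that probe relative to the transgene is not given, so it does not check the NIKtg label, and NIKtg names a label below. Of the T cell markers on the array, 8 of 8 were detected on every array. Values below are normalized log2 intensities of the brightest probe of each gene, and differences are in log2 units, where 1 unit is a 2-fold change. A difference is called when limma's Benjamini-Hochberg adjusted p, over the 7926 genes, is under 0.05. Levels are not compared between genes, since probes differ in brightness.

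Foxp3 was near the top of the scale in Treg of either genotype and far lower, but detected, in Tconv. It read 13.48 and 13.57 on the WT Treg arrays, 13.19 and 13.36 on the NIKtg Treg arrays, 8.05 and 8.82 on the WT Tconv arrays and 6.07 and 7.01 on the NIKtg Tconv arrays. No group overlapped another. The reporter at the Foxp3 locus defined the sort, so the Treg to Tconv difference of Foxp3 is the sort itself. In linear terms Foxp3 in WT Tconv was 2.94% of its level in WT Treg, and in NIKtg Tconv it was 0.939% of its level in NIKtg Treg. In bulk samples such as these, fewer cells of a type and less RNA per cell cannot be told apart.

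Ikzf2 encodes Helios, an Ikaros family zinc-finger factor found in most thymus-derived Treg. Its values were 10.60 and 10.29 (WT Treg), 9.91 and 9.84 (NIKtg Treg), 7.58 and 7.10 (WT Tconv) and 6.62 and 6.78 (NIKtg Tconv). Ikzf4 encodes Eos, a second Ikaros family factor, which serves as a corepressor of Foxp3. It gave 10.16 and 10.23 (WT Treg), 9.90 and 10.03 (NIKtg Treg), 6.62 and 6.76 (WT Tconv) and 6.19 and 6.82 (NIKtg Tconv). The 4 groups of Ikzf2 stood apart from each other, while for Ikzf4 the Tconv groups of the 2 genotypes overlapped.

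Among the surface receptors, Il2ra was high on every Treg array and spread widely between the arrays of WT Tconv. It read 10.93 and 11.32 (WT Treg), 10.83 and 10.97 (NIKtg Treg), 6.80 and 7.99 (WT Tconv) and 5.29 and 5.73 (NIKtg Tconv), and its probe was detected on 1 of the 2 NIKtg Tconv arrays. Its Treg groups overlapped and its Tconv groups did not. Nrp1, a co-receptor for semaphorins and VEGF that marks thymus-derived Treg in mice, read 12.95 and 12.93 (WT Treg), 11.75 and 12.03 (NIKtg Treg), 9.98 and 9.73 (WT Tconv) and 6.56 and 7.37 (NIKtg Tconv). Its 4 groups formed separate steps.

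Gpr83, a G-protein-coupled receptor, read 12.18 and 12.00 (WT Treg), 11.38 and 11.76 (NIKtg Treg), 9.40 and 8.84 (WT Tconv) and 6.18 and 7.19 (NIKtg Tconv). Izumo1r, also known as folate receptor 4 and, on the egg, as Juno, gave 10.51 and 10.67 (WT Treg), 9.88 and 9.93 (NIKtg Treg), 8.19 and 8.08 (WT Tconv) and 5.99 and 6.90 (NIKtg Tconv). Both genes were lower on every NIKtg array than on every WT array of the same subset.

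The remaining 3 genes act in the cytoskeleton or outside the cell. Swap70, a protein that binds F-actin and takes part in Rac signalling, read 10.06 and 10.10 (WT Treg), 10.24 and 10.39 (NIKtg Treg), 6.66 and 6.75 (WT Tconv) and 7.61 and 7.78 (NIKtg Tconv). Capg, which caps actin filaments, read 11.84 and 11.82 (WT Treg), 11.66 and 11.51 (NIKtg Treg), 9.97 and 9.82 (WT Tconv) and 10.32 and 9.87 (NIKtg Tconv). Swap70 was higher on every NIKtg array than on every WT array of its subset, whereas the Tconv groups of Capg overlapped. Ecm1, a secreted glycoprotein of the extracellular matrix, read 10.67 and 10.43 (WT Treg), 11.96 and 12.37 (NIKtg Treg), 9.38 and 9.14 (WT Tconv) and 6.97 and 7.91 (NIKtg Tconv). Its highest group was thus NIKtg Treg and its lowest NIKtg Tconv.

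**Figure D1:**
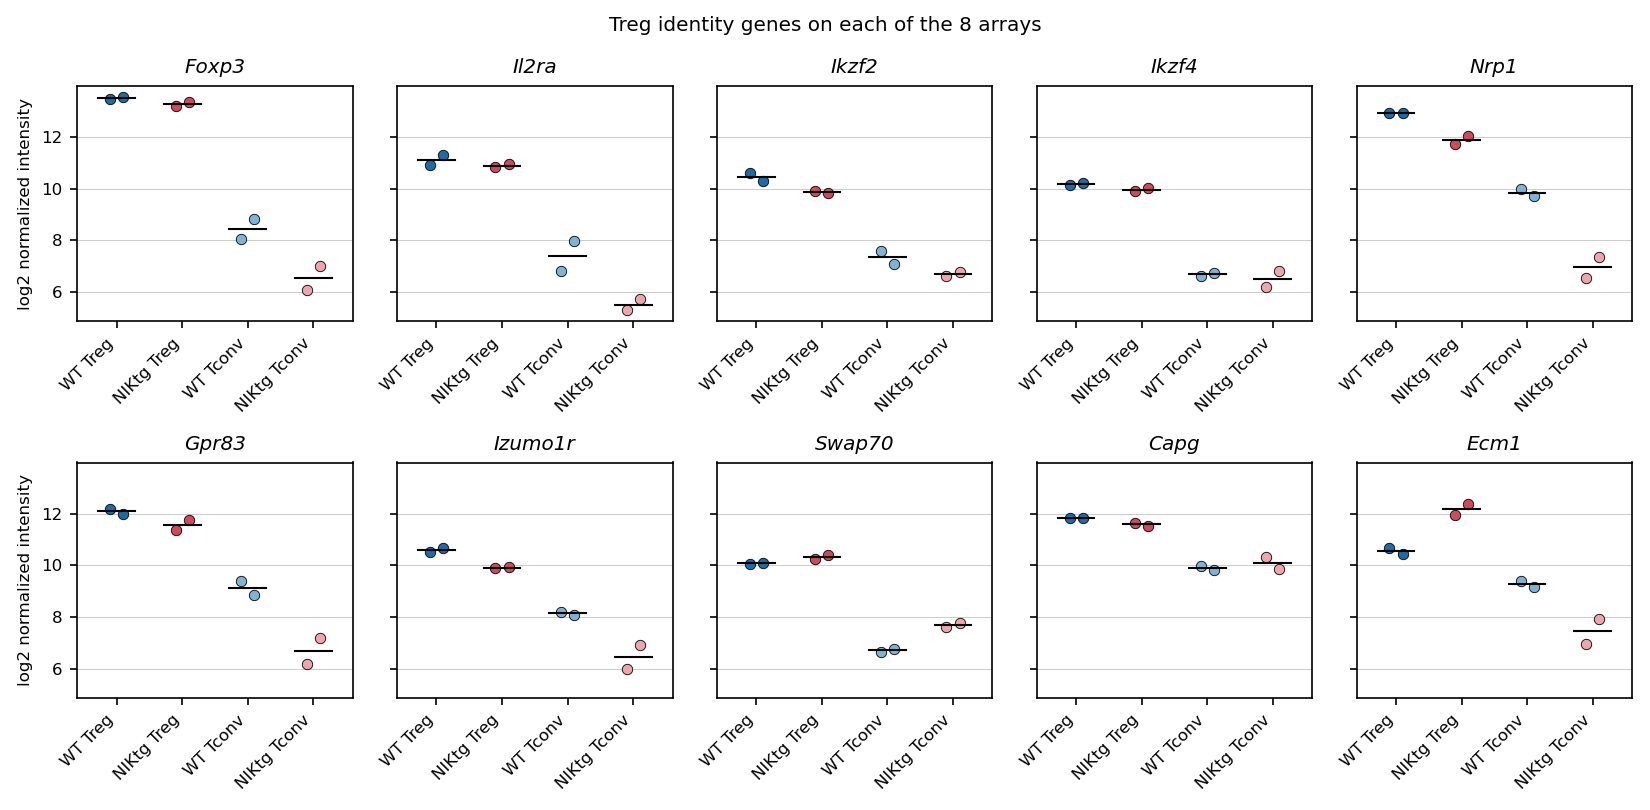
Normalized log2 intensity of the brightest probe of each of the 10 genes (vertical axis) on each array, by group (horizontal axis), with points for arrays and a line at the group mean. Every Treg point of a gene lies above every Tconv point of that gene, and Ecm1 is the gene whose NIKtg Treg points (11.96 and 12.37) lie clearly above its WT Treg points (10.67 and 10.43).

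The comparison of WT Treg with WT Tconv gives the reference difference between the sorts. All 10 genes were higher in WT Treg, where 24% of all genes tested were called, 11.1% higher and 12.9% lower. Their median difference was 3.09, against -0.06 over all genes, but these genes are named for this difference, so the count says that the arrays carry the known pattern and no more. Beside Foxp3, at 5.09 (SE 0.33, adjusted p = 8.54e-05, 2 arrays in each group), the differences ran from 3.73 (SE 0.36, adjusted p = 0.000417) for Il2ra down to 1.93 (SE 0.16, adjusted p = 0.000206) for Capg and 1.29 (SE 0.29, adjusted p = 0.018) for Ecm1. In WT Tconv, Ecm1 kept 40.9% of its Treg level, Capg 26.2% and Izumo1r 18.2%, and Il2ra 7.53%. The Ecm1 call was lost without any 1 of the 4 WT arrays, at an adjusted p of 0.0972 without WT Treg 1, 0.0599 without WT Treg 2, 0.0595 without WT Tconv 1 and 0.0722 without WT Tconv 2 (range over all alternatives 0.000378 to 0.0972).

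In NIKtg cells, all 10 genes were again higher in Treg than in Tconv. Here 39.9% of all genes were called, 23.1% higher and 16.9% lower, with a median of 0.08 over all genes and 4.10 over these. Foxp3 differed by 6.73 (SE 0.33, adjusted p = 2.58e-05), Nrp1 by 4.92 (SE 0.25, adjusted p = 2.58e-05) and Ecm1 by 4.73 (SE 0.29, adjusted p = 5.6e-05). In NIKtg Tconv, Ecm1 stood at 3.76% of its NIKtg Treg level, Nrp1 at 3.29% and Gpr83 at 3.38%, compared with 40.9%, 11.8% and 12.8% between the WT subsets. Swap70 ran the other way, at 16.3% in NIKtg cells and 9.63% in WT cells, as did Capg, at 35.7% and 26.2%. For Ikzf2 the shares were 11.1% and 11.6%, and for Ikzf4 9.11% and 8.80%. Every gene kept this call under each alternative in which it was tested.

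The comparison of NIKtg Treg with WT Treg asks whether the transgenic Treg keep the expression of these genes. Of the 10 genes, 2 were called: Ecm1 rose by 1.62 (SE 0.29, adjusted p = 0.0111, n = 2 arrays per group), a linear 3.07-fold increase, and Nrp1 fell by 1.05 (SE 0.25, adjusted p = 0.0247), to 48.3% of its WT level. Over all genes tested, 19.9% were called, 10.4% higher and 9.45% lower, so that a count of 2 of 10 is close to the background. The median difference of the 10 genes was -0.25, against 0.06 over all genes.

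Foxp3 itself differed by -0.25 (SE 0.33, adjusted p = 0.618), with a 95% interval from -1.02 to 0.52, so a change of up to about 1 log2 unit downward lay within the interval. Il2ra differed by -0.22 (95% interval -1.05 to 0.60, adjusted p = 0.685) and Ikzf4 by -0.23 (95% interval -0.68 to 0.22, adjusted p = 0.426). These missed calls do not show that the levels are equal. Ikzf2, at -0.57 (SE 0.18, adjusted p = 0.0621), and Izumo1r, at -0.69 (SE 0.26, adjusted p = 0.0992), came nearer to the threshold. Gpr83 gave -0.52 (adjusted p = 0.294), Capg -0.25 (adjusted p = 0.295) and Swap70 0.23 (adjusted p = 0.177). By arrays, 7 of the 10 genes had both NIKtg arrays below both WT arrays and 2 had both above, where 26.9% and 39% of all genes did.

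Both calls in Treg depended on single arrays. The Nrp1 call was lost without WT Treg 1 (adjusted p = 0.111), WT Treg 2 (0.102) or NIKtg Treg 1 (0.121), and the Ecm1 call without WT Treg 2 (adjusted p = 0.0652), over ranges of 0.000398 to 0.121 for Nrp1 and 9.58e-05 to 0.0652 for Ecm1 under all alternatives. In 4 alternative normalizations, namely the authors' normalized table, median centring, no background correction and a larger offset, 4 of 10 genes were called, with Ikzf2 and Izumo1r added as lower. Arrays of NIKtg Treg were also dimmer before normalization, with mean intensities of 461.1 and 473.6, against 565.2 and 566.3 for WT Treg, and the part of this in these differences was not tested.

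In Tconv the difference between genotypes was broader. Of the 10 genes, 8 were called between NIKtg Tconv and WT Tconv, with Foxp3, Il2ra, Ikzf2, Nrp1, Gpr83, Izumo1r and Ecm1 lower and Swap70 higher. Each of these 8 read lower on NIKtg Tconv 1 than on NIKtg Tconv 2, so their calls are not separate observations. Over all genes tested 30.1% were called, 17.2% lower and 12.9% higher. The median of the 10 genes was -1.76, against -0.08 over all genes. Nrp1 fell by 2.89 (SE 0.25, adjusted p = 0.000433), Gpr83 by 2.44 (SE 0.33, adjusted p = 0.00196), Foxp3 by 1.89 (SE 0.33, adjusted p = 0.0054) and Il2ra by 1.89 (SE 0.36, adjusted p = 0.00755). Ecm1 fell by 1.82 (SE 0.29, adjusted p = 0.00395) and Izumo1r by 1.69 (SE 0.26, adjusted p = 0.00322), while Ikzf2 fell by 0.64 (SE 0.18, adjusted p = 0.0322).

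Swap70 rose by 0.99 (SE 0.11, adjusted p = 0.00106), a linear 1.99-fold increase. Ikzf4 differed by -0.18 (95% interval -0.63 to 0.27, adjusted p = 0.509) and Capg by 0.20 (95% interval -0.17 to 0.57, adjusted p = 0.368). In linear terms, NIKtg Tconv kept 26.9% of the WT Tconv level of Foxp3, 27.0% of Il2ra, 13.5% of Nrp1 and 18.4% of Gpr83. These shares depend on the setting. Over the alternatives the log2 difference ran from -2.36 to -1.25 for Foxp3 and from -2.49 to -0.98 for Il2ra. It ran from -3.29 to -2.23 for Nrp1 and from -2.94 to -1.74 for Gpr83. By arrays, 7 genes had both NIKtg arrays below both WT arrays and 1 had both above, where 41.4% and 28.7% of all genes did. Leaving out NIKtg Tconv 1 ended the Il2ra call (adjusted p = 0.065, range 0.000298 to 0.065). The Ikzf2 call was lost without WT Tconv 1 (adjusted p = 0.156), NIKtg Tconv 1 (0.166) or NIKtg Tconv 2 (0.0784), over a range of 0.00589 to 0.217 under all alternatives.

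Marker genes moved with both genotype comparisons. Of 8 T cell markers, Cd3g, Cd247, Cd5 and Cd28 fell in NIKtg Treg (median -0.38), where the 8 summed to 46897 to 49513 in linear intensity against 58850 to 62343 in WT Treg. In NIKtg Tconv Cd3g and Cd247 rose (median 0.20), with sums of 59043 to 61788 against 50455 to 51386 in WT Tconv. Among markers of other cells, Eomes and Cd74 rose in NIKtg Treg, and Cd79b, Fcmr, Adgre1, Tyrobp and Hba-a1 fell. The summed linear intensity of 6 NK cell markers ran from 16455 to 20809 on NIKtg Tconv arrays and from 2700 to 5792 on WT Tconv arrays, against 949 to 1020 in WT Treg and 1207 to 1581 in NIKtg Treg. Of the 5 tested, Eomes and Nkg7, which effector T cells also express, rose in NIKtg Tconv, and Klrb1c, Klrd1 and Klrk1 fell, while Ncr1 was detected in no group. The 8 B cell markers on the array summed to 1979 to 2019 in NIKtg Tconv and 678 to 827 in WT Tconv, and to 3809 to 4233 in NIKtg Treg and 2480 to 2837 in WT Treg. Of 4 tested, Cd22 and Cd74 rose and Cd79b and Fcmr fell in Tconv. Pax5 was detected in no group, while Cd79a was detected in NIKtg Treg, Ms4a1 in WT Tconv and Blk in NIKtg Tconv, each in no other group. The 10 myeloid and dendritic cell markers summed to 2278 to 2473 in NIKtg Tconv, where Adgre1 and Tyrobp fell, 2021 to 2152 in WT Tconv, 2432 to 2742 in NIKtg Treg and 3173 to 3232 in WT Treg, and Itgam, Itgax, Cd14 and Fcgr3 were detected in no group. The CD8 markers, of which Cd8a was detected in no group, summed to 474 to 601 in NIKtg Tconv and 1100 to 1395 in WT Tconv, and to 926 to 1033 and 810 to 846 in NIKtg and WT Treg. The 4 erythroid and platelet markers on the array summed to at most 238 on any array. The part of these markers in the results was not tested.

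**Figure D2:**
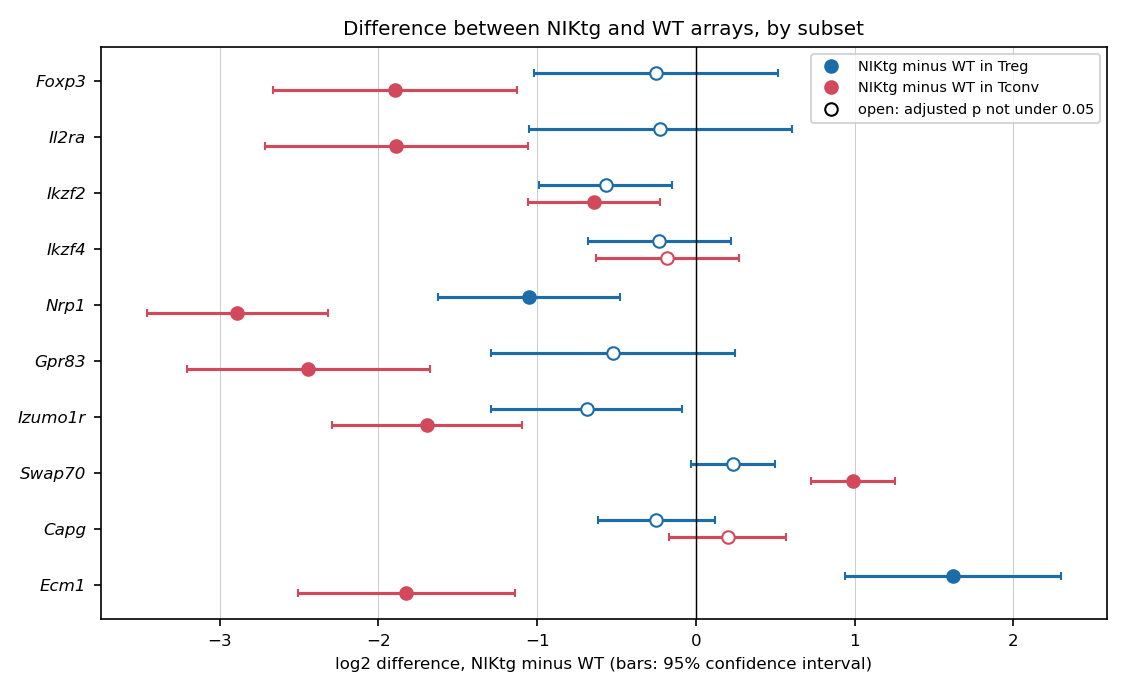
Difference between NIKtg and WT arrays in log2 units (horizontal axis) for each of the 10 genes (vertical axis), in blue for Treg and in red for Tconv, with 95% confidence intervals and filled points where the adjusted p is under 0.05. The Tconv points of 7 genes lie left of 0 and filled, from -0.64 to -2.89, while in Treg only Nrp1 (-1.05) and Ecm1 (1.62) are filled.

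The direct test of whether the NIKtg to WT difference was unequal in the 2 subsets (Treg minus Tconv) called 6 of the 10 genes. Over all genes, 39.2% were called, 23% higher and 16.1% lower, with a median of 0.15 against 1.32 for the 10 genes. Ecm1 gave 3.44 (SE 0.41, adjusted p = 0.00122), rising in Treg and falling in Tconv. For Gpr83 the difference was 1.92 (SE 0.47, adjusted p = 0.0159), for Nrp1 1.84 (SE 0.35, adjusted p = 0.0062), for Il2ra 1.66 (SE 0.50, adjusted p = 0.0347) and for Foxp3 1.64 (SE 0.47, adjusted p = 0.0276). Swap70, at -0.76 (SE 0.16, adjusted p = 0.00945), had the larger increase in Tconv.

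For the other 4 genes the test was not passed. Izumo1r gave 1.00 (SE 0.36, adjusted p = 0.0618), Capg -0.45 (SE 0.22, adjusted p = 0.146), Ikzf2 0.07 (adjusted p = 0.835) and Ikzf4 -0.05 (adjusted p = 0.899). For Ikzf2 the genotype differences in Treg and Tconv, at -0.57 and -0.64, lay side by side, although 1 was called and the other was not. Ecm1, Nrp1 and Swap70 kept their calls under all 19 alternatives. In 1 of these each gene was read from its probe of smallest p, which favours a call. The dimmest kept Swap70 probe gave -0.18 (adjusted p = 0.493 over all kept probes) in the direct test. The Foxp3 call was lost in 7 of 19, at an adjusted p of 0.075 without WT Treg 1, 0.0642 without WT Treg 2, 0.054 without NIKtg Treg 1, 0.059 without NIKtg Treg 2, 0.0632 without WT Tconv 2, 0.0662 without NIKtg Tconv 1 and 0.0774 with a trended, robust prior (range 0.00792 to 0.0774). The Il2ra call was lost without either array of WT Treg (0.105 and 0.0559), of NIKtg Treg (0.0617 and 0.0665) or of NIKtg Tconv (0.115 and 0.0552), with no filter (0.0604) and with the trended prior (0.083), over a range of 0.00456 to 0.115. The Gpr83 call was lost without WT Treg 2 (0.0502) or WT Tconv 1 (0.0549) and with the trended prior (0.0502), over a range of 0.00284 to 0.0549. Without WT Treg 2 the count of called genes was 3 in place of 6.

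The order of the 4 group means was the same for 7 of the 10 genes, from WT Treg through NIKtg Treg and WT Tconv to NIKtg Tconv. Of the 30 pairs of neighbours in these orders, 20 differed at the threshold. In each of the 10 genes the middle step lay between a Treg and a Tconv group and was among those called. The genes are named for that difference, so those calls were fixed in advance. The other steps are the genotype comparisons given above, so the count of 20 is no separate result. Neither the share of all genes with the order of these 7 nor the share of called neighbours over all genes was computed. Over all genes, 18.4% were called between NIKtg Treg and WT Tconv and 20.5% between NIKtg Tconv and WT Treg. For Nrp1 all neighbours differed, from WT Treg to NIKtg Treg (1.05), on to WT Tconv (2.04, adjusted p = 0.00151) and on to NIKtg Tconv (2.89). Foxp3, Il2ra, Ikzf2, Gpr83 and Izumo1r had NIKtg Treg above WT Tconv and WT Tconv above NIKtg Tconv, with no call between the Treg groups. For Ikzf4 the called step was the one between NIKtg Treg and WT Tconv, at 3.28 (adjusted p = 7.77e-05). Capg ran from WT Treg through NIKtg Treg and NIKtg Tconv to WT Tconv, and its called step was between the subsets (1.49, adjusted p = 0.000452). Swap70 had both NIKtg groups above their WT counterparts, with a step of 2.39 (adjusted p = 1.77e-05) from WT Treg down to NIKtg Tconv. Ecm1 differed at every step, from NIKtg Treg to WT Treg, WT Tconv and NIKtg Tconv.

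Several genes were read by more than 1 probe, and the probes of a gene share its RNA, so they are no replicates. Of the 3 Foxp3 probes, a dim probe was detected only on the 4 Treg arrays. The second bright probe gave -1.88 (SE 0.23, adjusted p = 0.00164 over all kept probes) between the genotypes in Tconv and -0.28 (adjusted p = 0.407) in Treg, close to the -1.89 and -0.25 of the brightest. All 3 Izumo1r probes were lower in NIKtg Tconv, by 1.32 to 1.69. In Treg, 2 of these 3 were called lower, at -0.66 (adjusted p = 0.0492) and -1.08 (adjusted p = 0.0204), and the brightest was not (adjusted p = 0.0982).

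The pair of Nrp1 probes was called lower in both subsets. For Swap70, 2 of the 3 kept probes rose in NIKtg Tconv, by 0.99 and 1.08, and the third gave 0.34 (adjusted p = 0.103). The dimmer Ecm1 probe, detected only on Treg arrays, rose by 0.89 (SE 0.23, adjusted p = 0.0337) in NIKtg Treg, so the increase of Ecm1 in Treg was read by both of its probes and its decrease in Tconv by 1. The pair of Capg probes gave no call in either subset between the genotypes.

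**Figure D3:**
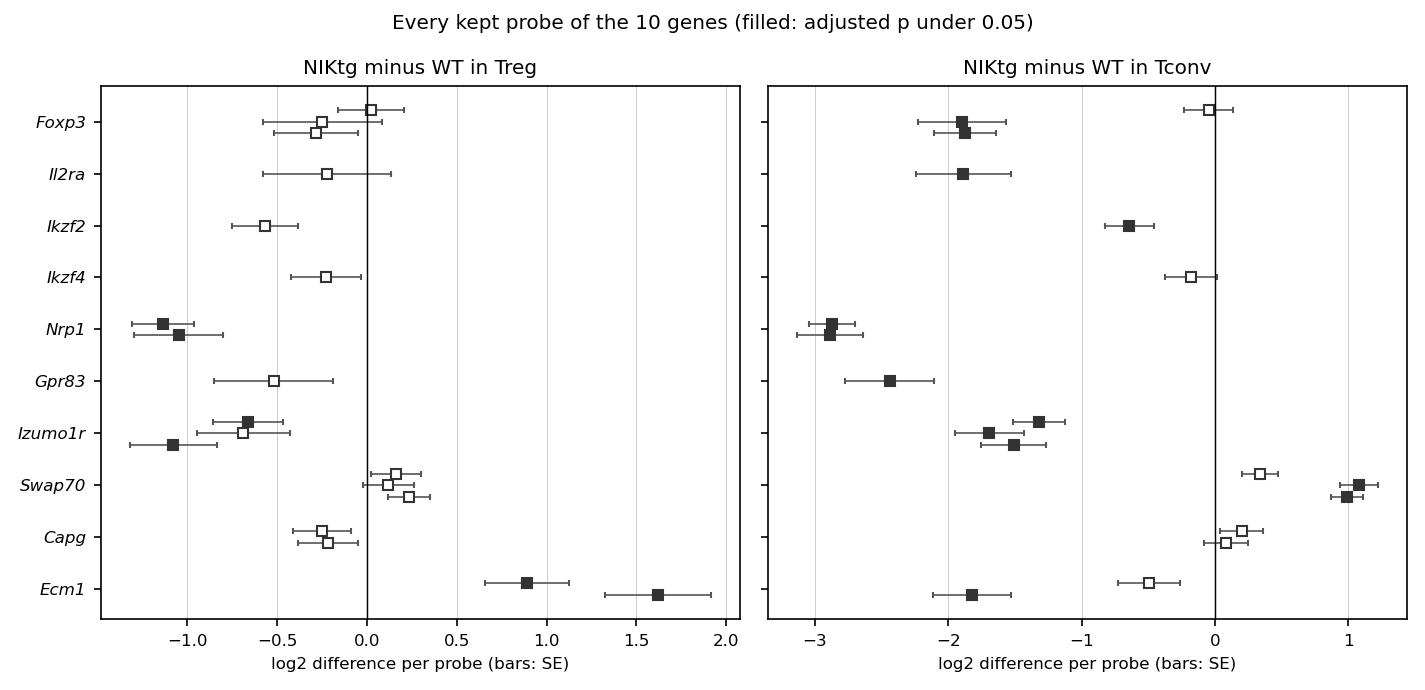
Difference between NIKtg and WT arrays in log2 units (horizontal axis) for each kept probe of the 10 genes (vertical axis), in Treg on the left and in Tconv on the right, with bars for the standard error and filled squares where the adjusted p over all kept probes is under 0.05. The probes of Nrp1 agree in both panels, 2 of 3 Izumo1r probes are filled in Treg, and in Tconv the dim Foxp3 probe lies at -0.05 beside -1.88 and -1.89 for the others.

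Genes whose levels followed Foxp3 most closely over the 8 arrays were found by Pearson correlation, as a description with no test, since the arrays fall into Treg and Tconv clusters. The 5 nearest were Slc22a5, a carnitine transporter (0.998), Il2ra (0.995), Pros1, which encodes the anticoagulant protein S (0.995), Grik5, a glutamate receptor subunit (0.993), and Cish, a cytokine-induced inhibitor of STAT5 signalling (0.992). Mean Cish was 12.51 in WT Treg, 12.06 in NIKtg Treg, 9.97 in WT Tconv and 8.74 in NIKtg Tconv, in the order of Foxp3. Of the other 8 genes described here, Ikzf4 ranked 21, Ikzf2 24, Izumo1r 32, Gpr83 41 and Nrp1 80 among all genes, and Capg 160, Ecm1 187 and Swap70 227. Nearest to Ikzf2 were Gabarapl1, Cd79b, Snx13, Prnp and Mgmt, with correlations between 0.993 and 0.995. Cd79b, a B cell receptor subunit, averaged 9.01 in WT Treg, 8.54 in NIKtg Treg, 6.28 in WT Tconv and 5.69 in NIKtg Tconv. Of other B cell markers, Pax5 was detected in no group, Cd79a only in NIKtg Treg, Ms4a1 only in WT Tconv and Blk only in NIKtg Tconv.

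The other genes of the Treg programme were read from 4 lists, which overlap, so their counts are not independent. Of the tested genes, Il2rb was among the signature genes, the regulators and the relatives. Satb1 and Lef1 were among the regulators and the genes low in Treg. The first list held 30 further Treg signature genes, of which 19 were tested. In WT Treg 15 of the 19 were higher than in WT Tconv (78.9%, against 11.1% of all genes, median 1.98). Among them were Itgae, an integrin alpha chain (4.91), Ctla4, an inhibitory receptor (3.21), and Tnfrsf4, the receptor OX40 (3.18, all with an adjusted p of 2.75e-05). The list was drawn up for this difference, so the count shows the known pattern and no more. Between NIKtg Treg and WT Treg 15 of 19 fell (78.9%, against 9.45% of all genes) and 0 rose, with a median of -1.07, beside 1 lower and 1 higher of the 10 genes, with a median of -0.25. The count of 15 became 7 of 17 tested without WT Treg 1 or WT Treg 2 and 10 of 19 without NIKtg Treg 1, with medians between -1.05 and -0.94. Ccr8 and Tnfrsf1b, untested without either WT Treg array, had passed the detection filter through WT Treg alone, where both read highest. Their part in counts that involve WT Treg is therefore no independent support. The count of 5 higher in Tconv became 3 without either NIKtg Tconv array. The difference between the 2 sets of genes was not tested.

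Among them, Nt5e, the ectoenzyme CD73, fell by 1.09 (SE 0.11, adjusted p = 0.00162) and Cd83, an activation marker, by 2.03 (SE 0.24, adjusted p = 0.00222). Ctla4 fell by 0.97 (SE 0.15, adjusted p = 0.00639). Il10, an immunosuppressive cytokine, read 7.61 and 6.91 on WT Treg arrays and 4.37 and 4.67 on NIKtg Treg arrays, where it was not detected, which makes it at least 2.66-fold lower (adjusted p = 0.0025). Ccr8, a chemokine receptor, was not detected on NIKtg Treg arrays either and was at least 1.79-fold lower (adjusted p = 0.000242). These bounds are for detection only and take no account of the spread between replicates. Ccr8 was tested only because both WT Treg arrays detected it, so its fall from WT Treg was favoured by the filter.

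In Tconv, the same 19 genes were 5 higher and 3 lower in NIKtg cells (42.1% called, against 30.1% of all genes), with a median of 0.25, beside the median of -1.76 of the 10 genes. Rgs1, a regulator of G-protein signalling, rose by 2.30 (SE 0.31, adjusted p = 0.00204), Il10 by 2.00 (SE 0.33, adjusted p = 0.00436) and Tnfrsf9, the costimulatory receptor 4-1BB, by 1.15 (SE 0.18, adjusted p = 0.00359). Socs2, a feedback inhibitor of cytokine signalling, fell by 2.35 (SE 0.28, adjusted p = 0.00133). Between NIKtg Treg and NIKtg Tconv, 10 of 19 were higher and 2 lower (63.2% called, against 39.9% of all genes, median 0.64), the lower ones being Klrg1, a receptor of differentiated T cells, and Il10. With NIKtg Treg 1 left out Klrg1 no longer passed (adjusted p = 0.0609), nor with NIKtg Tconv 1 left out (0.0647) or a trended prior (0.0543). In the direct test between the subsets 15 were lower and 1, Socs2, was higher (84.2% called, against 39.2% of all genes, median -1.24).

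The list of regulators of the Foxp3 locus and partners of Foxp3 held 39 genes, 24 of them tested. In WT cells 4 were higher and 3 lower in Treg, and in NIKtg cells 4 and 7, so that 29.2% and 45.8% of the 24 were called, near the 24% and 39.9% of all genes. In NIKtg Treg 9 fell against WT Treg and 0 rose, among them Nfatc1, a factor of calcium signalling (-1.20, adjusted p = 0.00175), Irf4, needed by effector Treg (-1.37, adjusted p = 0.00373), and Runx1, a DNA-binding partner of Foxp3 (-0.61, adjusted p = 0.0334). The Runx1 call was lost without WT Treg 1 (adjusted p = 0.172), WT Treg 2 (0.0674) or NIKtg Treg 1 (0.161), with no filter (0.0555) or with only the groups compared in the fit (0.0566), and the count of 9 ran down to 3 with 1 array left out. In Treg 37.5% of the list was called lower, against 9.45% of all genes. In NIKtg Tconv 4 rose and 5 fell, 37.5% in all, near the 30.1% of all genes. Ezh2, the histone methyltransferase of Polycomb, rose by 1.70 (SE 0.17, adjusted p = 0.000674), and Foxo1, a factor that binds the Foxp3 locus, fell by 1.35 (SE 0.14, adjusted p = 0.000734). In the direct test between the subsets 4 were higher and 8 lower, with Ezh2 at -2.63 and Foxo1 at 1.36 (50% called, against 39.2% of all genes). Medians of this list lay between -0.06 and 0.02 in the 5 comparisons, and ran down to -0.66 with median centring, where 14 were lower and 0 higher between the NIKtg subsets. Median centring also moved the median of all genes between the NIKtg subsets, by -0.55.

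Of 20 genes known to be low in Treg, 14 were tested. In WT cells 11 were lower and 1 higher in Treg (78.6% and 7.14%, against 12.9% and 11.1% of all genes, median -1.49), the difference for which they were listed. In NIKtg cells 4 were lower and 2 higher (28.6% and 14.3% of 14, against 16.9% and 23.1% of all genes). The median of 0.19 between the NIKtg subsets turned to -0.34 with median centring, -0.056 with no filter, -0.25 with a gene's probes averaged, -0.30 with each probe fitted separately and -0.14 without NIKtg Tconv 1, and the count of 2 higher became 5 without NIKtg Tconv 2. With median centring the median of all genes in this comparison moved by -0.55. NIKtg Tconv showed 9 lower and 2 higher (64.3% and 14.3%, against 17.2% and 12.9% of all genes, median -0.78), including Igfbp4, an IGF-binding protein of naive T cells (-3.16, adjusted p = 0.00154), and Ccr7, the lymph node homing receptor (-1.94, adjusted p = 0.00142). In NIKtg Treg 2 were higher, Il7r, the interleukin-7 receptor chain (0.68, adjusted p = 0.0111), and Dapl1 (1.27, adjusted p = 0.0035), and 1, Id2, was lower (21.4% called, near the 19.9% of all genes, median 0.21, or -0.13 with median centring). The Il7r call was lost without WT Treg 1 (adjusted p = 0.0714) or NIKtg Treg 1 (0.053) and with median centring (0.0954, difference 0.49), and the Id2 call without WT Treg 1 (0.0978), WT Treg 2 (0.142), NIKtg Treg 1 (0.155), NIKtg Tconv 1 (0.0563) or NIKtg Tconv 2 (0.0549), and with no filter (0.0528), the mean of probes (0.0627) or a trended prior (0.071). In the direct test 7 were higher and 2 lower (64.3% called, against 39.2% of all genes, median 0.90).

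The relatives of the 10 genes numbered 12 listed and 6 tested. Il2rb, the beta chain beside Il2ra in the interleukin-2 receptor, fell by 0.66 (SE 0.16, adjusted p = 0.0271) in NIKtg Treg and rose by 0.62 (SE 0.16, adjusted p = 0.0238) in NIKtg Tconv, where Il2ra fell. The Il2rb call in Treg was lost without any 1 of the 4 Treg arrays (adjusted p = 0.0616 to 0.145), and that in Tconv without WT Tconv 1 (0.132), NIKtg Tconv 1 (0.139) or NIKtg Tconv 2 (0.0524). Ikzf1, the Ikaros factor related to Ikzf2 and Ikzf4, was 1.18 lower in WT Treg than in WT Tconv (adjusted p = 5e-04), opposite in sign to both. It fell by 0.47 (adjusted p = 0.0222) in NIKtg Tconv, a call lost without any 1 of the 4 Tconv arrays (adjusted p = 0.051 to 0.103) and with median centring (0.24). Foxp1, a forkhead relative of Foxp3, fell by 0.85 (SE 0.14, adjusted p = 0.00397) in NIKtg Tconv and gave -0.03 (adjusted p = 0.886) in NIKtg Treg. Def6, the homologue of Swap70, gave -0.03 and 0.03 between the genotypes in Treg and Tconv (adjusted p = 0.865 and 0.869). Over the 6, counts higher and lower were 1 and 1 between the WT subsets, 2 and 1 between the NIKtg subsets, 0 and 1 in Treg, 1 and 2 in Tconv and 3 and 1 in the direct test. In the same order 33.3%, 50%, 16.7%, 50% and 66.7% were called, against 24%, 39.9%, 19.9%, 30.1% and 39.2% of all genes.

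**Figure D4:**
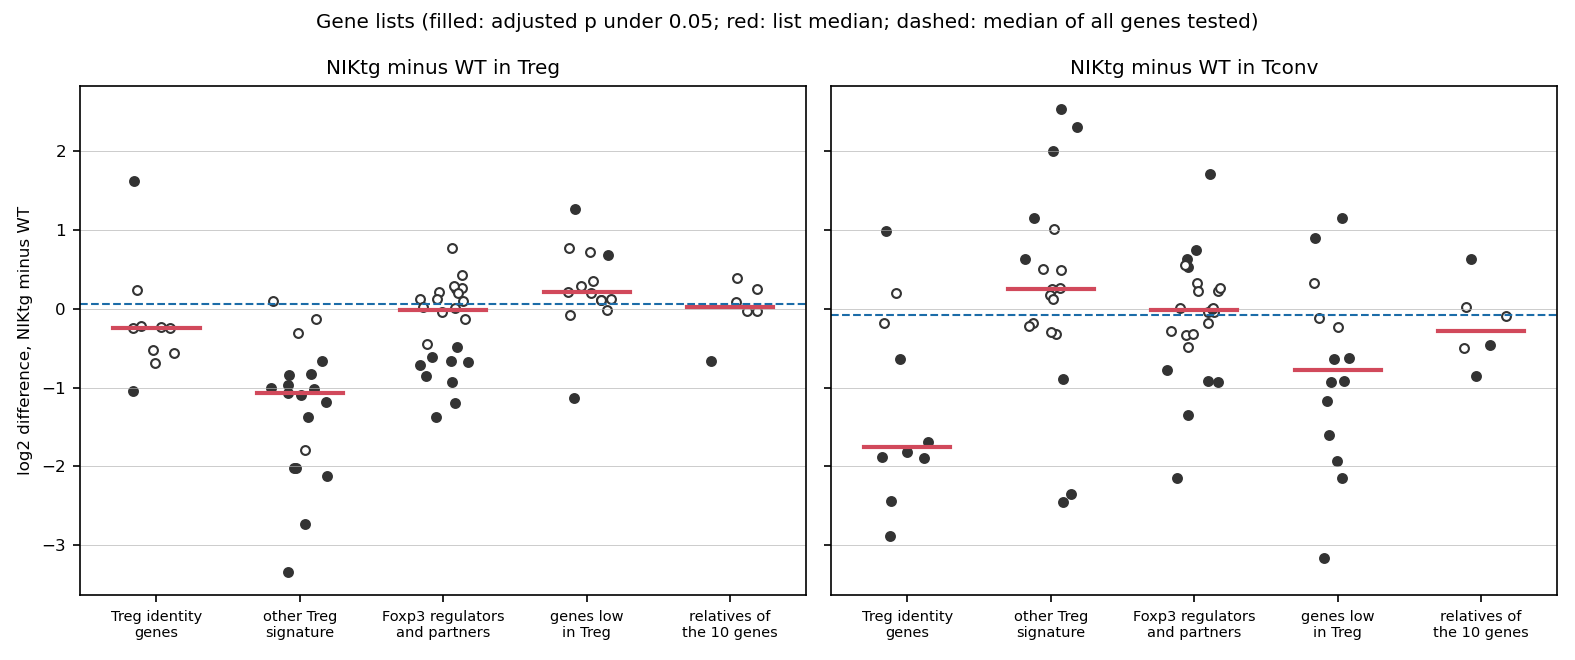
Difference between NIKtg and WT arrays in log2 units (vertical axis) for the genes of 5 lists (horizontal axis), in Treg on the left and in Tconv on the right, with a point per gene, filled where the adjusted p is under 0.05, a red bar at the list median and a dashed line at the median of all genes. The 10 genes have medians of -0.25 in Treg and -1.76 in Tconv, and the other Treg signature genes of -1.07 and 0.25.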

How the data were processed

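The 10 genes, the lists and the alternatives were chosen with earlier results of these data known. Per the labels' protocols, RNA was column-purified, amplified and hybridised to Illumina arrays, and the submitters' processing notes name GenomeStudio 2010.1. The authors deposited unnormalized probe intensities with, per the file headers, a detection p-value for each, and a normalized intensity table on a linear scale, by a method not given in the sources used here (an alternative, as log2). Its columns had medians of 118.6 to 118.8.

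The deposited intensities were background-corrected here with limma 3.58.1 in R 4.3.3 (nec, offset 16), taken to log2 and quantile normalized. Probes were kept if detected (p under 0.01) on 2 or more of the 8 arrays (11526), and the brightest probe of each gene was used (7926 genes). Symbols came from the platform annotation, which named 23978 of 25697 probes with 1 symbol and left 1719 unnamed here. Contrasts were fitted over all arrays with lmFit and eBayes (two-sided, 4 residual degrees of freedom), with Benjamini-Hochberg adjustment over all genes and a threshold of 0.05. Precision is limited by the number of arrays. Where both arrays of the dimmer group missed a gene, its fold is a bound. All 10 genes were named whatever their values, with, from each list, up to 4 genes past the threshold of smallest adjusted p in a contrast, and the 5 genes nearest to Foxp3 and to Ikzf2, a subset of which is printed. Tests were tried on simulated data. The labels state no pairing by replicate number, and the main fit used none. Alternatives covered normalization, background, filter, probe choice, prior, samples fitted, a replicate block and leaving out each array. Where each probe was fitted separately, as its own feature, a gene was then read from its probe of smallest p, which favours a call.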

Additional observations from a re-analysis of the deposited data

Results flagged for a closer look

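The difference between NIKtg and WT arrays was itself unequal in Treg and Tconv, by the interaction term of the fit, for 6 of the 10 genes. Over all genes tested, 39.2% were called. On the log2 scale, as the effect in Treg minus that in Tconv, the values were 1.64 for Foxp3, 1.66 for Il2ra, 1.84 for Nrp1, 1.92 for Gpr83, -0.76 for Swap70 and 3.44 for Ecm1. The Foxp3 call held in 12 of 19 alternatives, the Il2ra call in 10 of 18 and the Gpr83 call in 16 of 19.

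The same test called 16 of 19 other signature genes, 12 of 24 regulators, 9 of 14 genes low in Treg and 4 of 6 relatives. Up to 4 of smallest adjusted p are named from each list, 16 in all. Among the other Treg signature genes, Ccr8 gave -1.85, Il10 -4.74, Tnfrsf9 -2.33 and Socs2 2.44. Among regulators of the Foxp3 locus and partners of Foxp3, Ezh2 gave -2.63, Foxo1 1.36, Kat5 -1.20 and Uhrf1 -1.23. Among genes low in Treg, Dapl1 gave 2.18, Ccr7 2.65, Actn1 1.82 and Igfbp4 3.35. Among the relatives, Il2rb gave -1.29, Ikzf1 0.71, Foxp1 0.82 and Foxp4 0.89. Ccr8 and Il10 were not detected in NIKtg Treg, and Ccr8 and Foxp4 not in NIKtg Tconv, so their values are fitted differences and no bounds. Ccr8 passed the detection filter through WT Treg alone, where it read highest, so its value is no independent support. The Foxp4 call held in 7 of 18 alternatives, with adjusted p-values between 0.00809 and 0.278. It was lost with median centring, the authors' table, no background correction, no filter or a trended prior, and without WT Treg 1, NIKtg Treg 1, NIKtg Treg 2, WT Tconv 1, NIKtg Tconv 1 or NIKtg Tconv 2. Foxp1 was lost with median centring (0.481) and without WT Treg 1 (0.0527), and Ikzf1 with median centring (0.459). With 2 arrays per group, no array could be tested as standing apart within its group.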

How the results depend on the processing

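Of 945 values of the 10 genes under 19 alternatives, 877 kept their direction and their side of the threshold, and 14 changed sign, none of them called with either setting. Between the subsets, for which the genes are named, 185 of 189 were kept in WT cells and 189 of 189 in NIKtg cells. Fewer were kept elsewhere, with 167 of 189 in Treg, 180 in Tconv and 156 in the direct test. The count of called genes between NIKtg Treg and WT Treg was 2, and 4 with the authors' normalized table, median centring, no background correction or an offset of 50. For the direct test between the subsets it was 6, and 3 with a trended, robust prior. Without 1 array at a time the counts ran from 0 to 3 between the Treg groups, 3 to 7 in the direct test, 6 to 8 between the Tconv groups, 9 to 10 between the WT subsets, and 10 throughout between the NIKtg subsets, and the called neighbours in the order of levels from 17 to 20. The Treg count was 1 without WT Treg 1 or NIKtg Treg 1 and 0 without WT Treg 2.

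With the replicate number as a block the counts were 10 and 10 between the subsets in WT and NIKtg cells, 2 in Treg, 8 in Tconv and 6 in the direct test, so the block left each of these counts at its value. In the lists it moved 6 counts by 1: other signature genes from 15 to 16 higher between the WT subsets and from 15 to 16 lower in Treg, regulators from 4 to 5 higher between the WT subsets, from 9 to 10 lower in Treg and from 4 to 5 higher in Tconv, and genes low in Treg from 9 to 8 lower in Tconv, where the Ifngr2 call was lost (adjusted p = 0.0533, up to 0.235 over its other alternatives). Same-numbered samples correlated at -0.019 to 0.143 in their deviations. This cannot show whether they came from the same animals, and the labels link them by number alone.

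Sign changes concerned Ikzf2 in the direct test, at -0.13 with the authors' table, -0.50 with median centring, -0.14 with no background correction and -0.043 with an offset of 50, and between -0.16 and 0.31 with 1 array left out. With median centring Ikzf4 in Tconv was 0.076 and Swap70 in Treg -0.077. With 1 array left out Ikzf4 ran from -0.37 to 0.26 in the direct test and from -0.49 to 0.14 in Tconv, and Capg in Tconv from -0.026 to 0.43. The cause was not tested.

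Median centring moved the median of all genes by -0.34 in Treg and 0.17 in Tconv, and by -0.55 between the NIKtg subsets and -0.53 in the direct test. Relative to that median Swap70 was 0.20 higher in Treg and Ikzf4 gave -0.018 in Tconv. Relative to the median of all genes, Ikzf2 in the direct test gave -0.13 with median centring and -0.075 in the main setting. The Ikzf2 call in Tconv was also lost with no filter (adjusted p = 0.0598) and with median centring (0.217). Il2ra was not tested where detection on all 8 arrays was asked, and the order of levels was not run with every probe as its own feature. Intensities near the background limit Il2ra in NIKtg Tconv and the dim probes of Foxp3 and Ecm1.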
